A study of Mus musculus with 4 samples.

Results

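Of the 21938 protein-coding genes of GENCODE vM21 (mouse genome build GRCm38), 10 encode the classical acute phase proteins described here, which are *Saa1*, *Saa2*, *Saa3*, *Crp*, *Hp*, *Hpx*, *Orm1*, *Fga*, *Fgb* and *Fgg*. They were chosen by name, with earlier results of these data known, and not by a rule on any value in the files. Each gene was described through every peak that overlapped its gene body or the 10 kb on either side of its transcription start site (TSS), and the neighbouring fibrinogen genes and *Saa* genes were also taken as blocks. Acute phase proteins are plasma proteins that hepatocytes make and secrete, and their genes are strongly induced when cytokines such as IL-6 and IL-1 signal injury or infection. STAT3, C/EBP factors and NF-kappa B carry that signal to their promoters, on a base of liver factors such as HNF1. In a healthy liver several of them (the fibrinogen chains, hemopexin and haptoglobin) are already made in quantity, while serum amyloid A is low until induction.

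Accessible chromatin (ATACseq, in which the Tn5 transposase cuts open DNA) and occupancy of the histone variant H2A.Z (ChIPseq on chromatin cut with micrococcal nuclease) were profiled in 2 livers. H2A.Z sits in nucleosomes beside the start sites of many active or poised genes. Both livers were from male C57Bl/6 mice of 8 to 12 weeks on a normal diet, collected in the morning from 9 am. The WT liver carried floxed *Uhrf1* (Uhrf1-fl/fl) without Cre, and the Uhrf1hepKO liver carried the same alleles with Alb:Cre. The albumin promoter drives Cre in hepatocytes, so the other cells of that liver keep the gene. *Uhrf1* encodes a factor that maintains DNA methylation. The same pair of livers served both assays, which gives 4 libraries with 1 library per condition and no replicate error, so no difference between genotypes is tested. In whole liver, fewer cells with a mark and less of the mark in each cell cannot be told apart.

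The authors called peaks in each library separately, and the deposited lists give each peak's position, fold over local background, and p- and q-value. On chromosomes 1 to 19, X and Y there were 10582 ATACseq peaks in WT and 10764 in Uhrf1hepKO, and 51450 and 47135 H2A.Z peaks. Depth showed only through these lists. The lowest number of H2A.Z reads at the summit of a listed peak was 11 in WT and 12 in Uhrf1hepKO, and a site with fewer reads was not detectable. The lowest number of reads behind an ATACseq peak is not known. Of 7 hepatocyte marker genes, 2 and 3 had an ATACseq peak in the same kind of window in WT and Uhrf1hepKO, and 2 and 1 had H2A.Z. For 6 Kupffer cell and macrophage markers these counts were 1, 1, 2 and 2, for 5 endothelial markers 2, 2, 4 and 4, for 4 cholangiocyte markers 1, 0, 1 and 1, for 4 T and B cell markers 0, 1, 2 and 1, and for 3 neutrophil markers 0, 0, 1 and 1. The shares of all protein-coding genes were 39.2%, 37.7%, 64.3% and 62.4% in that order, and those of genes with as few promoter CpGs as the acute phase genes were 16.6%, 17.1%, 36.6% and 35.5%. *Uhrf1* itself had 1 ATACseq and 1 H2A.Z peak near its TSS in each liver, and such peaks do not check the deletion.

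Genes with a peak were counted in each list and read against the share of all protein-coding genes under the same rule. The counts were near that share for H2A.Z, and for ATACseq they lay somewhat above it except near the TSS in Uhrf1hepKO. With 10 genes and 1 library per condition, the ATACseq distance amounts to few genes and was not tested. An ATACseq peak lay in the window of 6 of 10 genes in WT, against 39.2% of all protein-coding genes, and of 5 of 10 in Uhrf1hepKO, against 37.7%. H2A.Z lay in the windows of 6 genes in WT (64.3% of all genes) and of the same 6 in Uhrf1hepKO (62.4%), namely *Saa1*, *Saa2*, *Saa3*, *Crp*, *Hpx* and *Fgb*. Within 1 kb of the TSS, ATACseq peaks were called at 4 genes in WT (*Crp*, *Hpx*, *Orm1* and *Fgg*, against 26.4% of all genes) and at 2 in Uhrf1hepKO (*Fga* and *Fgg*, against 24.1%). H2A.Z peaks within 1 kb of the TSS were called at *Saa1*, *Saa2*, *Crp* and *Hpx* in both livers, which is 4 of 10 genes against 46.0% in WT and 44.5% in Uhrf1hepKO. *Hp* alone had no peak in any of the 4 lists.

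These promoters are poor in CpG, and that changes the background they should be read against. Within 500 bp of their TSSs the 10 genes had 4 to 15 CpGs with a median of 10.5, whereas the median of all protein-coding genes was 41. Among the 5202 protein-coding genes with CpG numbers in that range, only 2.08% and 2.27% had ATACseq peaks less than 1 kb from the TSS in WT and Uhrf1hepKO, and 8.59% and 8.38% had H2A.Z there. For the whole window the shares of these CpG-poor genes were 16.6% and 17.1% for ATACseq, and 36.6% and 35.5% for H2A.Z. In all 4 lists the share of acute phase genes with a peak was above that of CpG-poor genes, with counts of 2 to 6 genes each.

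**Figure D1:**
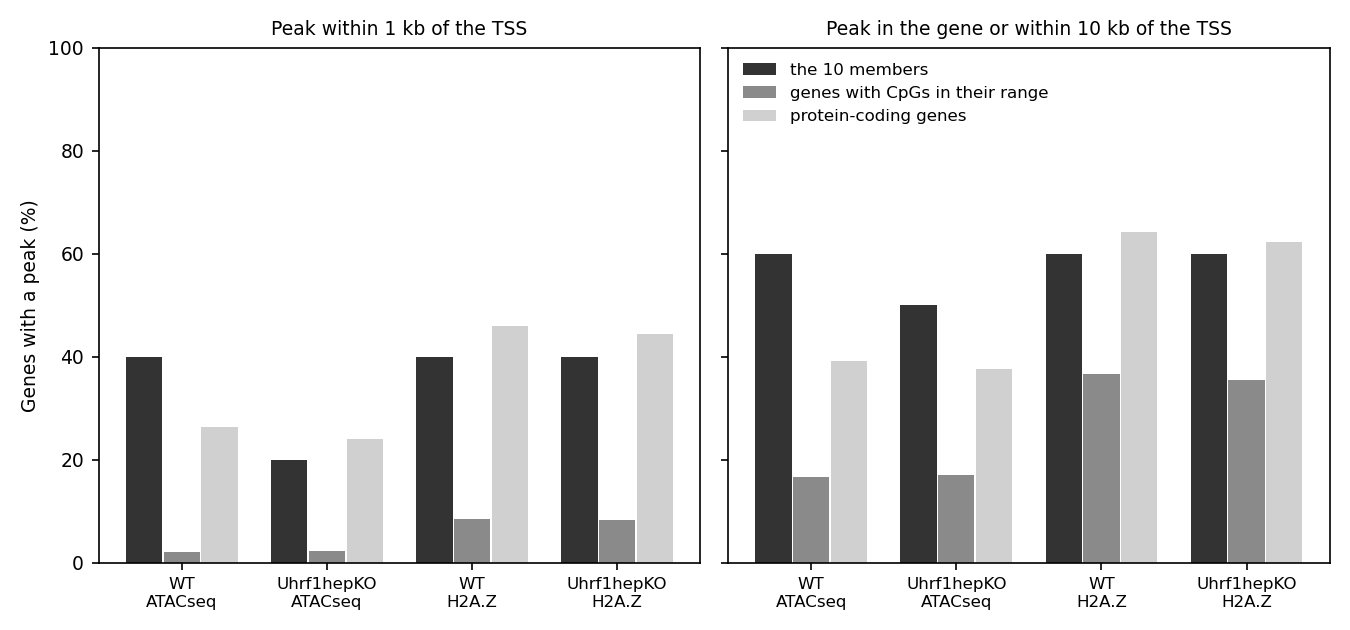
Percent of genes with a peak (y axis) in each of the 4 libraries, within 1 kb of the TSS (left) and in the gene or within 10 kb of the TSS (right), for the 10 acute phase protein genes (the 10 members), for protein-coding genes with 4 to 15 CpGs around the TSS, and for all protein-coding genes. The dark bars stand above those of CpG-poor genes in every library, and above those of all genes only for ATACseq in the whole window and within 1 kb in WT.

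The 2 assays were then compared gene by gene. In WT, *Crp* and *Hpx* had peaks of both assays within 1 kb of the TSS, *Orm1* and *Fgg* had only ATACseq, *Saa1* and *Saa2* had only H2A.Z, and the other 4 had neither. Of all protein-coding genes in WT, 24.4% had both, 1.93% only ATACseq, 21.6% only H2A.Z and 52.0% neither. For the CpG-poor genes these shares were 1.15%, 0.923%, 7.44% and 90.5%. Over all protein-coding genes, 92.7% of those with a WT ATACseq peak this close to the TSS also had H2A.Z there, and over the CpG-poor genes 55.6% did. In Uhrf1hepKO none of the 10 genes had both, while 2 had only ATACseq and 4 only H2A.Z. Of all protein-coding genes in Uhrf1hepKO, 21.8% had both, 2.27% only ATACseq, 22.7% only H2A.Z and 53.2% neither. For the CpG-poor genes these shares were 1.11%, 1.15%, 7.27% and 90.5%. In that liver 90.5% of all genes with such an ATACseq peak also had H2A.Z, and 49.2% of the CpG-poor genes did.

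**Figure D2:**
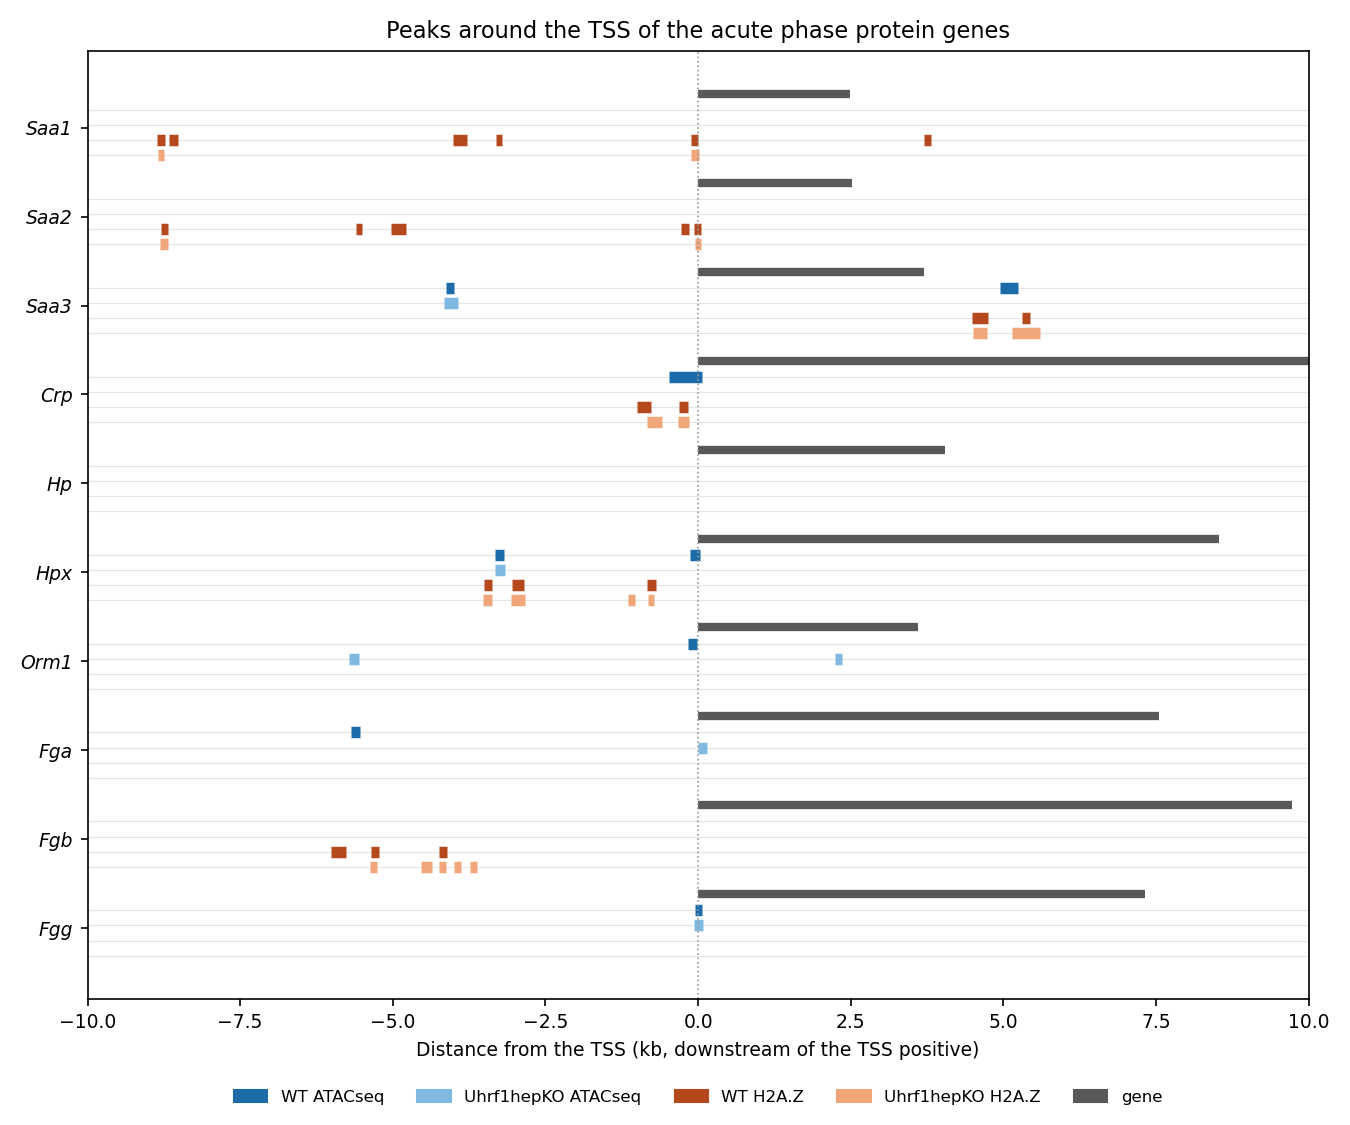
Position of every ATACseq (blue) and H2A.Z (brown) peak from 10 kb upstream to 10 kb downstream of the TSS of each gene, in kb, with transcription running to the right and the gene body in grey. H2A.Z sits at or just upstream of the TSS of *Saa1*, *Saa2*, *Crp* and *Hpx* in both livers, *Fgg* has an ATACseq peak on the TSS in both, and *Hp* is empty. The peaks near 88 kb in the long *Crp* gene model lie outside the plot.

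*Saa1* and *Saa2* encode the serum amyloid A proteins that the liver releases on high density lipoprotein during the acute phase. They are a divergent pair of near copies, *Saa1* at chr7:46740497-46742980 on the minus strand and *Saa2* at chr7:46751790-46754313 on the plus strand. Their RefSeq promoters (300 bases each, GRCm38.p6) were identical at 287 bases, or 95.3% of the aligned positions, against 54.2% between *Saa1* and *Saa3*. The stretch upstream of each TSS is shown to compare the pair, with matches to the C/EBP motif TTNNGNAA on either strand in capitals. *Saa1* is given at chr7:46742981-46743230 (minus strand) and *Saa2* at chr7:46751583-46751789 (plus strand).
Saa1: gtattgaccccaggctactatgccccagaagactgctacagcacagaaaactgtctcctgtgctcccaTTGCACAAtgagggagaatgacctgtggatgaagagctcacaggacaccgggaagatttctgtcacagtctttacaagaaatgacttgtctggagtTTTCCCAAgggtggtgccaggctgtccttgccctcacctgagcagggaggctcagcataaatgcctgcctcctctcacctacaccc
Saa2: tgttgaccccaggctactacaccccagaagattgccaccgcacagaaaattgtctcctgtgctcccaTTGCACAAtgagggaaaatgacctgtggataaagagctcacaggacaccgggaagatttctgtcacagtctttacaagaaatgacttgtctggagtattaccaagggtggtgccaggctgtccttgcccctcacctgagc
Both stretches held the same distal match, and a second match, nearer the TSS, was present in *Saa1* and not in *Saa2*.

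H2A.Z marked both of these promoters in both livers, and no ATACseq peak was called at either. The summit beside *Saa1* lay 59 bp upstream of the TSS with 22 reads in WT (95% interval 13.8 to 33.3) and at 58 bp with 27 reads in Uhrf1hepKO (17.8 to 39.3). At *Saa2* it lay 8 bp upstream with 25 reads in WT (16.2 to 36.9) and 6 bp upstream with 18 in Uhrf1hepKO (10.7 to 28.4). *Saa1* was thus the lower of the pair in WT and the higher in Uhrf1hepKO, with intervals that overlapped throughout. All such intervals are exact Poisson intervals and cover counting error only. The distances of these summits run to the GENCODE TSSs, which are not at matching points of the near copies. The last bases printed for *Saa2* (cacctgagc) are found in *Saa1* well before the end of its stretch. The *Saa2* TSS is thus drawn further upstream, and the distances do not show that H2A.Z is placed differently at *Saa1* and *Saa2*.

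Around the pair, 4 more H2A.Z peaks were called in WT. They lay 3770 bp downstream of the *Saa1* TSS (18 reads), 3250 bp and 3822 bp upstream of it between the genes (19 and 15 reads), and 219 bp upstream of *Saa2* (20 reads). None of them overlapped a Uhrf1hepKO peak, although the last was 89 bp from one. Their 15 to 20 reads were below the WT list's median of 21 and above its lowest of 11. Over the whole WT list, 53.7% of peaks with 15 to 20 reads overlapped a Uhrf1hepKO peak. The nearest ATACseq peak in either liver was more than 23 kb away from the *Saa1* TSS, at 23144 bp in WT and 23111 bp in Uhrf1hepKO. Reads from near copies can be lost or misplaced. Of all words of 75 bases, the shortest read length given, 19.3% in *Saa1*, nearly as many in *Saa2* and 15.1% within 1 kb of either TSS recurred elsewhere on the chromosomes. Under the promoter peaks the only such recurrence was 3.97% of the words in the WT peak of *Saa2*.

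*Saa3*, at chr7:46711998-46715700 on the minus strand, encodes a serum amyloid A that macrophages and fat cells also make. No peak of either assay lay within 1 kb of its TSS. An ATACseq peak was called upstream of it in both livers, centred 4066 bp from the TSS in WT (140 bp wide, fold 3.84) and 4053 bp in Uhrf1hepKO (232 bp, fold 4.29). Folds are not scaled between libraries, so each was ranked within its own list, where these were at the 26.8 and 59.1 percentiles. This is the only ATACseq site of the whole *Saa* block that both livers held. No H2A.Z peak lay within 8.4 kb of it in either, the nearest being 8480 bp and 8436 bp away. The WT region (chr7:46719697-46719836, minus strand) is given because it is the ATACseq site nearest the TSSs of the 3 *Saa* genes. It held none of the 6 motifs searched.
Saa3 upstream site: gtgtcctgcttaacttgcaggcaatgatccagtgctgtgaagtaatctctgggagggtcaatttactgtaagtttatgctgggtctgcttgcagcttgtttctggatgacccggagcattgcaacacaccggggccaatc
The other peaks in the *Saa3* window sat downstream, around the TSS of *Saal1*, a neighbouring gene that is not an acute phase gene. There, H2A.Z was called on both sides of the *Saal1* TSS in both livers, with 26 and 31 reads in WT and 35 and 26 in Uhrf1hepKO. An ATACseq peak 74 bp from that TSS was called in WT only (fold 4.30).

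*Crp* encodes C-reactive protein, a pentraxin that binds microbes and dead cells and that mice induce weakly. In WT its TSS lay under the widest ATACseq peak of the group, a region of 530 bp at chr1:172697582-172698111 with a fold of 4.37 (52.1 percentile), which covered the TSS and the start of the transcript. No ATACseq peak of the Uhrf1hepKO list lay within 12 kb of the TSS, the nearest being at 12578 bp. H2A.Z was present at the promoter in both livers. The stronger site had its summit 236 bp upstream with 34 reads in WT (23.5 to 47.5) and 237 bp upstream with 45 reads in Uhrf1hepKO (32.8 to 60.2), at the 90.3 and 96.5 percentiles of fold, and the Uhrf1hepKO peak ranked highest of all peaks at these genes. A weaker site had 16 reads at 797 bp in WT and 18 reads at 638 bp in Uhrf1hepKO. The stronger H2A.Z peak lay inside the WT ATACseq peak, and *Crp* was the only gene of the 10 with such an overlap. The RefSeq stretch chr1:172697806-172698054 (plus strand) is given because both assays marked it. It has a C/EBP match and the motif TATAAA in capitals, and *Crp* was the only one with TATAAA among the 8 genes whose 300-base promoter was searched.
Crp: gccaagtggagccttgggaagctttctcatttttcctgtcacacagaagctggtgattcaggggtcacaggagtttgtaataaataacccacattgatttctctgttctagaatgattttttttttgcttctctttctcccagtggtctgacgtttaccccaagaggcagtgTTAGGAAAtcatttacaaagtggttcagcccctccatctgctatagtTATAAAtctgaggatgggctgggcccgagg

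GENCODE draws *Crp* as 134977 bp long because of a transcript with a far end, whereas RefSeq gives it 1911 bp. A cluster of H2A.Z peaks lay in an intron of the long model, between 87 and 89 kb from the TSS. In WT it had 3 peaks with summits at 87557, 87879 and 88243 bp and 20, 37 and 25 reads. In Uhrf1hepKO it had 2 peaks, with summits at 87849 and 88253 bp and 29 and 20 reads. These peaks were nearer to the TSS of *Gm38051*, at 4167 to 4863 bp, than to that of *Crp*. With the RefSeq model they fall out of the window and *Crp* keeps its promoter peaks.

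*Hp* and *Hpx* encode haptoglobin and hemopexin, which bind free haemoglobin and free haem in plasma and return them to the liver. *Hp* (chr8:109575128-109579172, minus strand) had no peak of either assay in its body or within 10 kb of its TSS in either liver. The nearest peaks lay past its 3′ end, at 13230 and 13240 bp from the TSS for ATACseq and 12491 and 12685 bp for H2A.Z in WT and Uhrf1hepKO. They were at the shared start of *Dhx38* and *Txnl4b*, which are housekeeping splicing genes. None of the words of 75 bases in the *Hp* gene recurred elsewhere.

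*Hpx* lies at chr7:105591613-105600137 on the minus strand. In WT an ATACseq peak of 174 bp covered its TSS (chr7:105600103-105600276, fold 4.43, 54.5 percentile), and the nearest Uhrf1hepKO peak was 3026 bp from that one. A further ATACseq peak, about 3 kb upstream, was called in both livers, at 3254 bp in WT (147 bp, fold 4.49) and 3244 bp in Uhrf1hepKO (158 bp, fold 4.82, the highest ATACseq percentile of the group at 73.9). H2A.Z flanked this upstream site on both sides in both livers. On the side nearer the gene it had 15 reads in WT (8.40 to 24.7) and 19 in Uhrf1hepKO (11.4 to 29.7), and on the far side 27 (17.8 to 39.3) and 30 (20.2 to 42.8). The gaps between the ATACseq peak and the 2 H2A.Z peaks were 129 and 52 bp in WT and 93 and 56 bp in Uhrf1hepKO. At the promoter itself H2A.Z lay 758 bp upstream with 19 reads in WT and 761 bp upstream with 16 in Uhrf1hepKO, and a peak of 17 reads at 1091 bp was called in Uhrf1hepKO only. The promoter (chr7:105600138-105600366, minus strand) and the part of the upstream site common to both livers (chr7:105603318-105603460, minus strand) are given to show how they differ. The promoter holds 2 C/EBP matches, in capitals, and the upstream site holds none of the 6 motifs.
Hpx: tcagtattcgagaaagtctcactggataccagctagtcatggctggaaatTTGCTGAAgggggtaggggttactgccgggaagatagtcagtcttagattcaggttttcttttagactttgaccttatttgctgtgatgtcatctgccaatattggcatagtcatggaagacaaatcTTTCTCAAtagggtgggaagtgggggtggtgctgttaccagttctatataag
Hpx upstream site: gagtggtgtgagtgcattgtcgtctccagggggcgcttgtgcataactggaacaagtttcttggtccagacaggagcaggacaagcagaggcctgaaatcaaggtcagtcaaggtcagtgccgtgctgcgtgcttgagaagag

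*Orm1* (chr4:63344560-63348163, plus strand) encodes orosomucoid, a glycoprotein that carries basic drugs and lipids in plasma. Its ATACseq peaks lay at different places in the 2 livers. In WT, 1 peak of 143 bp ended 17 bp upstream of the TSS (fold 4.33, 50.9 percentile). In Uhrf1hepKO, 1 peak lay 5639 bp upstream (fold 3.78) and 1 in an intron 2304 bp downstream (fold 3.87), at the 37.7 and 42.2 percentiles, and neither overlapped the WT peak, which was 2265 bp from the closer of them. No H2A.Z peak lay in the window in either liver. The nearest were 12703 and 12727 bp from the TSS, toward the related genes *Orm3* and *Orm2*, whose own windows held 2 H2A.Z peaks each in WT and 1 each in Uhrf1hepKO. In *Orm1*, 5.91% of the words of 75 bases recurred on the chromosomes.

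*Fga*, *Fgb* and *Fgg* encode the 3 chains of fibrinogen, which thrombin turns into the fibrin of a clot. They lie together at chr3:83007724-83049863, with *Fgg* and *Fga* on the plus strand and *Fgb* on the minus strand. *Fgg* was the only gene of the 10 with an ATACseq peak on its TSS in both livers. The WT peak was chr3:83007670-83007791 (122 bp, fold 4.27) and the Uhrf1hepKO peak chr3:83007664-83007799 (136 bp, fold 4.26), so that the edges differed by 6 and 8 bp. They ranked at the 48.2 and 58.4 percentiles of their lists. The site also lies in an intron of the antisense lincRNA *Gm30097*. *Fga* had 1 peak in each liver, and these lay 5537 bp apart. The WT peak was centred 5614 bp upstream (fold 3.72, 20.2 percentile), and the Uhrf1hepKO peak was in the transcript's start, centred 69 bp downstream of the TSS (fold 3.62, 28.2 percentile). Each had the lowest fold among the ATACseq peaks of the group in its list. *Fgb* had no ATACseq peak in its window, and the nearest was 29324 bp away in WT and 23650 bp in Uhrf1hepKO.

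The stretches upstream of the 3 TSSs are given because the genes are induced together and differ in their peaks. *Fga* is at chr3:83025903-83026075 (plus strand), *Fgb* at chr3:83049864-83050113 (minus strand) and *Fgg* at chr3:83007474-83007723 (plus strand). Capitals mark TTNNGNAA (C/EBP), CTGGGAA (IL-6 response), TTCNNNGAA (STAT) and GTTAAT (HNF1) on either strand, and no marked matches overlap.
Fga: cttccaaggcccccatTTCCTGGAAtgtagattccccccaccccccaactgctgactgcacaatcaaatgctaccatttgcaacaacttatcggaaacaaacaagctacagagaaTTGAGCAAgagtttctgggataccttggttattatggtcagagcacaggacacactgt
Fgb: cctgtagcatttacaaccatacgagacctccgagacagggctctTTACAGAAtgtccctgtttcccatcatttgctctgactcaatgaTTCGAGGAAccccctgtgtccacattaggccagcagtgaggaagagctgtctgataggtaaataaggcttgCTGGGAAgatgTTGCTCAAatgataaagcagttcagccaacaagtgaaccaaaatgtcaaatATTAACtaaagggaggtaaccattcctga
Fgg: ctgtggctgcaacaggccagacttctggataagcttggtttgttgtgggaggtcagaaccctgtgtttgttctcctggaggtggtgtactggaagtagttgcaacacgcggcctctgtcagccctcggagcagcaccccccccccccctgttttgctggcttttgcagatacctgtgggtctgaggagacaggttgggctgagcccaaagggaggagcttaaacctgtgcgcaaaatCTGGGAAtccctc
*Fgb* held 5 matches in 250 bases, *Fga* 2 in a shorter stretch of 173 bases, and *Fgg* 1 in 250 bases. A relation between matches and peaks was not tested.

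No H2A.Z peak was called anywhere in the 42140 bp from the start of *Fgg* to the TSS of *Fgb* in either liver. With 10 kb added on either side, the block had 3 H2A.Z peaks in WT and 5 in Uhrf1hepKO, all upstream of *Fgb*, and each was nearer to the TSS of *Plrg1*, a splicing factor gene, than to that of *Fgb*. They lay 4195, 5302 and 5817 bp from the *Fgb* TSS in WT, with 28, 25 and 19 reads. In Uhrf1hepKO they lay 3676, 3929, 4181, 4378 and 5322 bp from it, with 19, 28, 27, 15 and 23 reads. The longest stretch with no peak of any kind was 27273 bp (chr3:83026214-83053486), from the start of *Fga* across the whole of *Fgb*.

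The *Saa* block, from *Saa3* to *Saa2* with 10 kb on either side, is of nearly the same length as the fibrinogen block (62316 and 62140 bp), and H2A.Z lay inside it. It had 2 ATACseq peaks in WT and 1 in Uhrf1hepKO, and 8 and 4 H2A.Z peaks. Without the added 10 kb, it had 1 and 1 ATACseq peaks and 6 and 2 H2A.Z peaks, while the fibrinogen block had 2 and 2 ATACseq peaks and 0 H2A.Z peaks in both. *Saa4*, another serum amyloid A gene between *Saa3* and *Saa1*, lay in the longest stretch without a peak, 19295 bp (chr7:46719870-46739164).

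**Figure D3:**
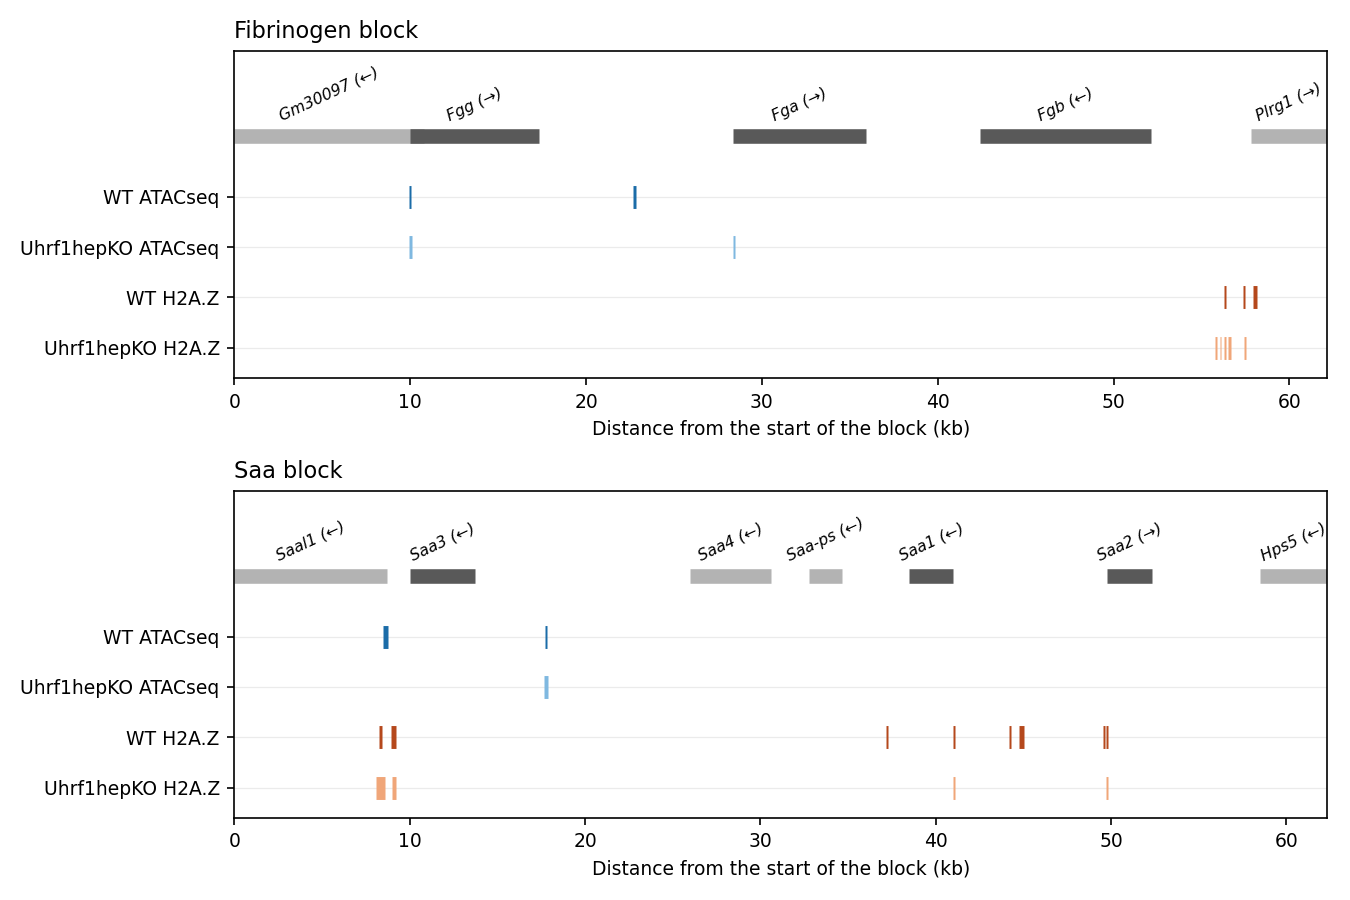
Peaks of the 4 libraries along the fibrinogen block (top) and the *Saa* block (bottom), each with 10 kb on either side, as distance from the block's start in kb. Acute phase genes are dark grey, other genes are light grey and arrows give the strand. In the fibrinogen block all H2A.Z peaks gather at *Plrg1*, and in the *Saa* block H2A.Z lies at *Saal1* and around *Saa1* and *Saa2*.

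Counting each peak once, the windows held 8 ATACseq peaks in WT and 6 in Uhrf1hepKO, and 19 and 17 H2A.Z peaks. Of the ATACseq peaks, 3 of 8 overlapped a peak of the other genotype in WT (61.3% of the whole list) and 3 of 6 in Uhrf1hepKO (60.3%), namely the upstream sites of *Saa3* and *Hpx* and the TSS of *Fgg*. Of the H2A.Z peaks, 13 of 19 did in WT (70.0% of the list) and 13 of 17 in Uhrf1hepKO (75.6%). Among list peaks with folds in the range seen at these genes, the share with an overlap was 50.8% in WT and 61.4% in Uhrf1hepKO for ATACseq, and 72.5% and 77.5% for H2A.Z. An H2A.Z peak of the same liver lay within 500 bp of 3 of the 8 ATACseq peaks in WT, against 65.4% of all WT ATACseq peaks, and of 1 of 6 in Uhrf1hepKO, against 57.7%. Those 3 were the promoter of *Crp*, the upstream site of *Hpx* and the TSS of *Saal1*.

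The nearest TSS was that of an acute phase gene for 7 of 8 ATACseq peaks in WT and all 6 in Uhrf1hepKO, and for 10 of 19 H2A.Z peaks in WT and 8 of 17 in Uhrf1hepKO. The rest of the H2A.Z peaks were nearest *Saal1*, *Plrg1*, *Gm38051* or, for 1 WT peak, the pseudogene *Saa-ps*. Those nearest *Gm38051* count only under the long GENCODE model of *Crp*. With the RefSeq model the windows held 16 H2A.Z peaks in WT and 15 in Uhrf1hepKO.

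At the 13 pairs of overlapping H2A.Z peaks, the summit reads of Uhrf1hepKO were higher in 6 and lower in 7, and in all 13 the counting intervals overlapped. The ratio of Uhrf1hepKO to WT reads ran from 0.720 at *Saa2* to 1.35 at the *Saal1* end of the *Saa3* window, with a median of 0.964. Over all 37552 such pairs in the lists the median ratio was 1.07, and 90% of them lay from 0.742 to 1.56. The usual local background was 3.103 reads in WT and 3.303 in Uhrf1hepKO, and the reads were not scaled for depth. The 6 WT peaks without an overlap had 15 to 20 reads, and the 13 with an overlap had 15 to 37. In Uhrf1hepKO the 4 without an overlap had 15 to 28 reads, and the 13 with one had 16 to 45.

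**Figure D4:**
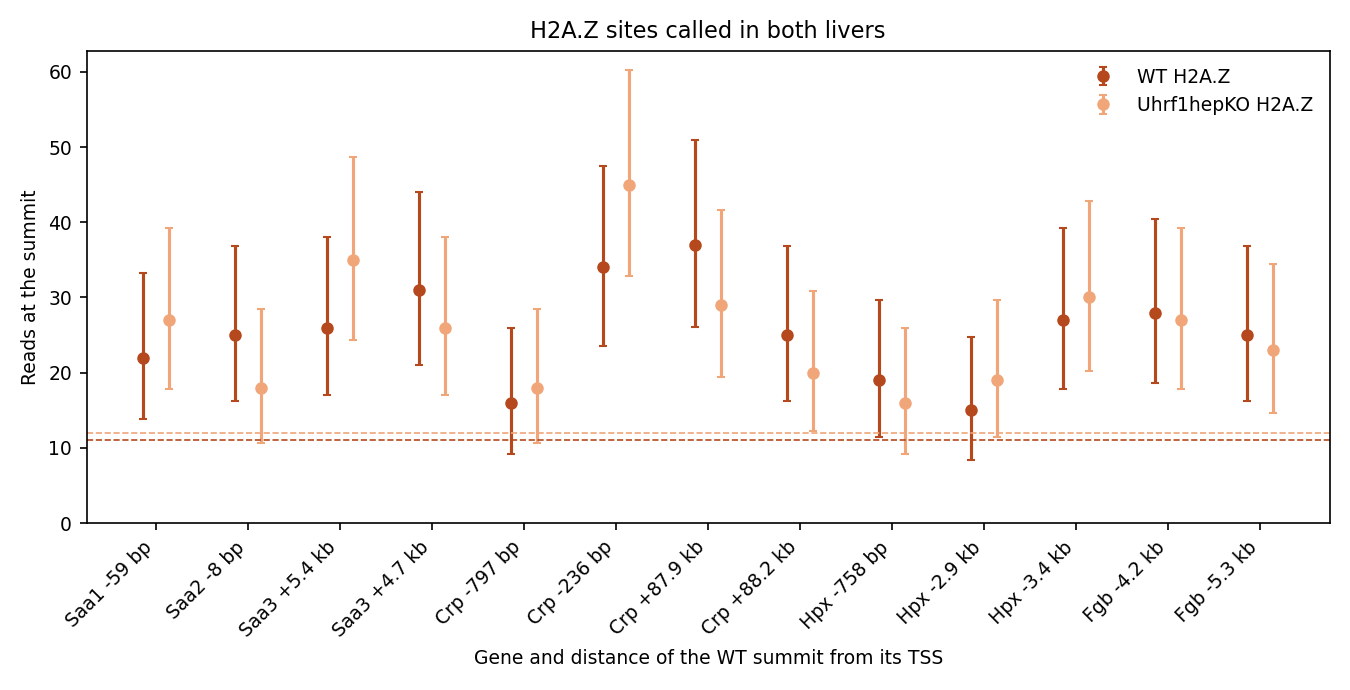
Reads at the summit (y axis) of the 13 H2A.Z sites called in both livers, with exact Poisson 95% intervals, ordered by gene and labelled with the distance of the WT summit from the TSS. Dashed lines are the lowest summit reads in each list (11 and 12). The *Crp* site at 236 bp has the most reads in Uhrf1hepKO (45) and the *Crp* intron site at 87879 bp the most in WT (37), and the intervals overlap at every site.

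The ATACseq peaks at these genes were of middling strength. In WT their folds ran from the 20.2 to the 56.4 percentile of the list with a median of 50.3, and in Uhrf1hepKO from 28.2 to 73.9 with the same median of 50.3. H2A.Z peaks spread more widely, from 14.1 to 93.5 (median 59.2) in WT and from 8.09 to 96.5 (median 54.3) in Uhrf1hepKO. The peaks were poor in CpG, like the promoters. There were 2.62 CpGs per 100 bp under the WT ATACseq peaks against 5.69 over the whole list, and 1.48 against 5.15 in Uhrf1hepKO. The WT value rested on the peak at the TSS of *Saal1*, which held 31 of the 45 CpGs, and without it the value was 0.992. For H2A.Z the values were 1.51 against 2.34 in WT and 1.60 against 2.30 in Uhrf1hepKO, and 0.577 and 0.4 for the peaks nearest the TSS of an acute phase gene.

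**Figure D5:**
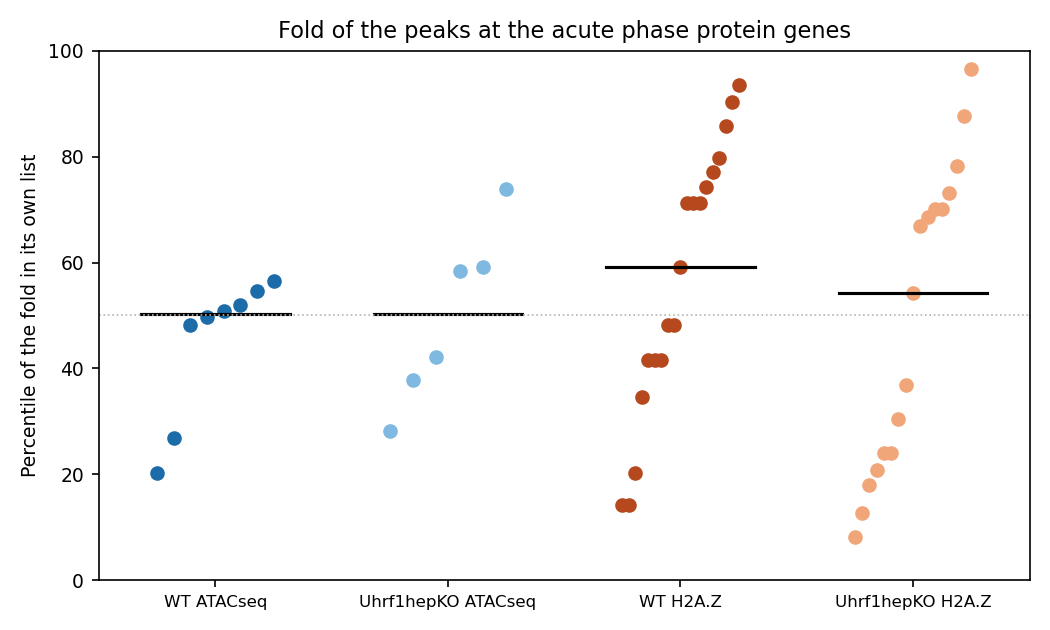
Percentile of each peak's fold within its own list (y axis, 0 to 100) for the peaks at the acute phase protein genes in the 4 libraries, with the median as a black bar. ATACseq peaks stay below the 57 percentile in WT and the 74 percentile in Uhrf1hepKO, whereas H2A.Z peaks reach above 93 in both.

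RefSeq promoters (250 bases before to 50 after the start) were matched for 8 of the 10 genes, without *Hp* and *Orm1*. The C/EBP motif TTNNGNAA was found in 7 of the 8, all except *Fgg*, and in 40.7% of 32851 promoters. CTGGGAA was found in *Fgb* and *Fgg* (11.1% of all promoters), TTCNNNGAA in *Fga* and *Fgb* (8.30%), GTTAAT in *Fga* and *Fgb* (7.10%) and TATAAA in *Crp* (13.6%). The GTTAAT match of *Fga* lay outside its printed stretch, which ends at the GENCODE TSS. The kappa B motif was in none of the 8 (8.46%). A match is a description of the letters and does not show binding.

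Other genes of the pathway had peaks at varied rates, read against the same shares of all protein-coding genes. Of 18 other acute phase protein genes, 6 and 7 had an ATACseq peak in WT and Uhrf1hepKO, and 10 and 11 had H2A.Z. The shares of all protein-coding genes were 39.2% and 37.7% for ATACseq and 64.3% and 62.4% for H2A.Z. These 18 genes had a median of 9.5 CpGs within 500 bp of the TSS, with up to 70 at *Mt2*. The shares of CpG-poor genes were 16.6% and 17.1% for ATACseq and 36.6% and 35.5% for H2A.Z. The shares of the 18 genes lay above these in every list, like those of the 10 genes. The H2A.Z peaks with the highest fold within 1 kb of a TSS in WT were at *Lbp*, which encodes the lipopolysaccharide binding protein (fold 8.29), *Apcs*, which encodes serum amyloid P (7.56), and *Mt1*, a metallothionein gene (6.09). *Mt1* was the only gene of that list with a WT ATACseq peak there (fold 4.56). Of 8 genes of negative acute phase proteins, whose levels drop in inflammation, 1 and 3 had an ATACseq peak and 3 and 2 had H2A.Z. None of them had H2A.Z within 1 kb of the TSS in either liver. Of all genes 46.0% and 44.5% had it there, and of CpG-poor genes 8.59% and 8.38%. In a list of 8 genes, none with H2A.Z is close to the CpG-poor shares, so no lack of H2A.Z is shown. Some of the 8 had more CpGs than that set, up to 51. Within 1 kb of the TSS *Apoa2* had the only WT ATACseq peak of this list (fold 3.66), and in Uhrf1hepKO *Alb* (4.18) and *Trf* (3.76), named after their values were seen, had such peaks.

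The 16 genes of IL-6 and IL-1 signalling and liver regulators had H2A.Z in 14 windows in WT and 15 in Uhrf1hepKO, and ATACseq peaks in 4 and 10, to be read against the same shares. Their promoters had a median of 82 CpGs (within 500 bp), and those of the acute phase genes 10.5. Near the TSS (1 kb), 2 of them had an ATACseq peak in WT, which were *Stat3*, the transcription factor of IL-6 signalling (fold 5.70), and the kinase gene *Jak1* (4.18), and 5 had one in Uhrf1hepKO (26.4% and 24.1% of all genes). H2A.Z lay within 1 kb of the TSS of 10 in each liver (46.0% and 44.5% of all genes), with the highest WT folds at *Socs3*, which encodes an inhibitor of this signalling (8.04), *Nfkb1* (7.56) and *Jak2* (6.58). The part that depth or genotype has in these counts was not tested.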

How the data were processed

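ATACseq and H2A.Z ChIPseq were each made from 1 WT and 1 Uhrf1hepKO liver (4 libraries, 1 library per condition). The authors used BWA-MEM (GRCm38.p4), then PICARD to clean and sort the alignments and, for ChIPseq, to remove duplicates. They called each library with MACS2, in broad mode for ATACseq, and give a p-value of 0.05 as the setting. The methods describe single-end ATACseq reads but a call with the paired-end option, so whether ATACseq folds and widths rest on fragments or reads is not known. The mode for H2A.Z, a control and the MACS2 version are not given in the sources used here. FastQC 0.11.5 and Trimmomatic are in the submitters' processing notes. The deposited fold is a ratio of pileup to local background, taken at the summit in the H2A.Z lists and averaged over the peak in the ATACseq lists. The same holds for the −log10 p- and q-values that were deposited, and the deposited score is a display value. Another deposited value is the distance from start to summit. Nothing is scaled between libraries.

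Peaks of the autosomes (1 to 19), X and Y were joined by an overlap of 1 bp to GENCODE vM21 genes (positions 1-based). Distances run to the summit for H2A.Z and to the centre for ATACseq. H2A.Z summit reads were solved from fold and p-value, within 0.002 on the −log10 scale, for 100% of peaks, and have exact Poisson 95% intervals. Highest q-values were 0.0997, 0.0993, 0.0500 and 0.0489 for WT and Uhrf1hepKO ATACseq and H2A.Z. The lists thus appear to end at a q-value, and not at the p-value of 0.05 that the methods give. Promoter sequences, and the exons at which printed stretches end, came from RefSeq (GRCm38.p6, curated models). Words of 75 bases were counted on both strands. Kappa B is a 10-letter motif named only.

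The 10 genes and the other lists were chosen with earlier results of these data known. Of the other lists, named genes are those whose windows overlap these genes and up to 3 per list with the highest WT fold within 1 kb of the TSS in each assay. Windows, peak filters, overlap rules, block edges, promoters and backgrounds were varied 1 at a time. With 1 library per condition no test was run. On simulated data, all 200 planted genes were found and reads were right for all 2000 peaks. The simulation used the same relation of reads, fold and p-value as the solving step, so it checks the code only. Software was biopython 1.88, matplotlib 3.10.9, numba 0.67.0, numpy 2.4.6, pandas 2.3.3, pysam 0.24.0, Python 3.11.15 and scipy 1.17.1.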

Additional observations from a re-analysis of the deposited data

How the results depend on the processing

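Of 114 alternative values, 74 stayed within 1.5 times the value given and 40 did not. Within 1 kb of the TSS only, distinct peaks became 4 and 2 for ATACseq and 6 and 5 for H2A.Z (WT and Uhrf1hepKO), and genes with a Uhrf1hepKO ATACseq peak became 2. The 18 other acute phase proteins then had 1, 3, 4 and 6 genes with a peak (ATACseq WT and Uhrf1hepKO, then H2A.Z), the signalling genes 2 and 5 for ATACseq, and the negative acute phase proteins 0 and 0 for H2A.Z. In the same order, 26.4%, 24.1%, 46.0% and 44.5% of all protein-coding genes had a peak within 1 kb. Of CpG-poor genes 2.08%, 2.27%, 8.59% and 8.38% had one. With peaks below their list's median fold left out, genes with an ATACseq peak became 3 and 3, distinct peaks 4, 3, 12 and 9, and peaks overlapping the other genotype 1 for WT ATACseq and 8 for Uhrf1hepKO H2A.Z. The fibrinogen block then had 0 and 1 ATACseq peaks and 3 Uhrf1hepKO H2A.Z peaks, and the Saa block 0 WT ATACseq and 5 WT H2A.Z peaks. Without the added 10 kb, the fibrinogen block had 0 and 0 H2A.Z peaks, and the Saa block 1 WT ATACseq and 2 Uhrf1hepKO H2A.Z peaks. ATACseq peaks that overlap H2A.Z, in place of lying within 500 bp, were 1 and 0. CpG-poor genes had a peak in 16.6%, 17.1%, 36.6% and 35.5%, in the order of libraries above. TATAAA was found in 4 promoters when 500 bp upstream of the TSS were searched, and in 23.8% of all protein-coding genes at that length. The C/EBP motif was then in all 8 genes, *Fgg* among them (62.0% of all genes). GTTAAT was then in *Saa3* and *Fgb* (13.4%). Counting only peaks nearest the TSS of one of the 10 genes, an alternative chosen after seeing the data, CpGs per 100 bp became 0.992 for WT ATACseq and 0.577 and 0.4 for H2A.Z. These changes follow from the narrower or wider regions and lists searched. A q-value of 0.01 or below, 5 kb windows, any annotated TSS and both other overlap rules moved no count that far. The RefSeq model of Crp and the fold range of the peaks, both chosen after seeing the data, did not either. Sites below the lowest listed reads are missing from all lists, and the spread between mice is unknown. No paired analysis was possible because each condition has 1 library and no test was run.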

Other observations

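Several of the nearest peaks lay just outside the 10 kb windows. They were 12491 bp from the TSS of *Hp* for H2A.Z in WT, 12703 bp from *Orm1* for H2A.Z in WT, and 12578 bp from *Crp* for ATACseq in Uhrf1hepKO. The farthest inside, apart from the *Crp* intron, was the H2A.Z site at *Saa2*, 8802 bp from the *Saa1* TSS in WT. Peaks without any CpG were 1 of the 8 WT ATACseq peaks, 0 of the 6 Uhrf1hepKO ATACseq peaks, 6 of the 19 WT H2A.Z peaks and 5 of the 17 Uhrf1hepKO H2A.Z peaks at these genes, against 7.88%, 9.48%, 16.0% and 13.8% of the respective lists.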
